A study of Mus musculus with 6 samples.

Results

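The genes of DNA replication and mitosis were examined as a group of 54 mouse genes that encode the replication machinery, the cyclins and kinases of the cell cycle, and the mitotic apparatus. Each was taken from the gene table by its symbol, and 53 of the 54 were found among 43548 gene identifiers; Cdt1 was not analysed here. By their textbook roles, 28 of the genes found act at the G1/S transition or in S phase, 21 act in G2 or mitosis, and 4 are regulators that belong to neither class (Rb1, Cdkn1b, Cdkn2c and Mybl2).

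The cells were Met-1 TripZ-200c, a mouse mammary carcinoma line on the FVB/nJ background, obtained from an advanced tumor of the MMTV-PyMT model, in which the mouse mammary tumor virus promoter drives the polyoma middle T oncogene. They carry a lentiviral TripZ vector with a red fluorescent protein tag that expresses the miR-200c precursor when doxycycline (Dox) is added. PlusDox cells received 1 µg/mL Dox for 48 h and MinusDox cells received vehicle (water), with 3 libraries in each group plated as triplicates of the same line. Both groups carry the vector and are 1 clone, and libraries of cells with an empty vector were not analysed here, so an effect of Dox itself and one of miR-200c cannot be told apart.

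A cell commits to division when D cyclins with Cdk4 or Cdk6, and then E cyclins with Cdk2, phosphorylate the retinoblastoma protein and free the E2F factors. E2F factors switch on the genes that license origins, make deoxynucleotides and copy DNA, while a later wave, driven by the B-Myb and FoxM1 complexes, supplies cyclin B, Cdk1, the Aurora and Polo kinases, the spindle checkpoint and the mitotic kinesins. Many genes of both waves are low in resting cells and high in dividing ones, which is why they serve as proliferation markers in breast cancer.

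Expression was measured as FPKM, fragments on a gene scaled by the length of its transcript and by the mapped fragments of the library. FPKM summed to between 800267 and 815139 per library, with 16867 to 18012 genes above 0, and the absolute number of reads is not known from them. Relative depths, estimated from the steps between the lowest values, ran from 0.916 to 1.30 in MinusDox and from 0.97 to 1.49 in PlusDox. The miR-200c target genes checked were lower in all PlusDox libraries: Zeb1, a repressor of epithelial genes, stood at 41.0, 42.1 and 42.3 FPKM in MinusDox and at 19.8, 20.3 and 23.6 FPKM in PlusDox (limma adjusted p = 3.62e-04), and Zeb2 fell by 1.81 on the log2 scale (adjusted p = 4.48e-05). The E-cadherin gene Cdh1 was between 0.04 and 0.08 FPKM in MinusDox and between 0.55 and 1.24 FPKM in PlusDox, below the mean of 1 FPKM needed for a test, and the miR-200c gene itself was listed at 0 in every library. Of the epithelial markers of a mammary carcinoma, Krt18 was at 91.2 to 96.4 FPKM without Dox, but Krt8 and Epcam were both below 0.4 FPKM there, and the mesenchymal gene Vim was at 3840 to 4055 FPKM. Among the immune markers, Cd3e, Adgre1 and Nkg7 were at 0 in all libraries and Cd68 was the only one above 1 FPKM, at 6.31 to 11.3 FPKM. Of 5 endothelial markers only Cdh5 passed 1 FPKM, at 3.95 to 4.66 FPKM, and of 4 adipocyte markers only Fabp4 did, which was lower with Dox (11.1 to 13.9 FPKM against 5.09 to 8.17 FPKM). In a bulk library, fewer cells in a phase of the cycle and less mRNA per cell cannot be told apart.

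The sequence of the induced microRNA is shown because several members carry its target word. The mature strand mmu-miR-200c-3p lies on the minus strand at chr6:124718324-124718346 of GRCm38.p6 (RefSeq), and its seed, bases 2 to 8, is in capitals.

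mmu-miR-200c-3p: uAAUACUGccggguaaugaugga

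All 53 genes were expressed, with means over the 6 libraries from 5.89 FPKM (E2f2) to 1113 FPKM (Ccnd1), and all entered the limma comparison of 12879 genes. With Dox, 9 of the 53 (17.0%) passed an adjusted p of 0.05, where 15.0% of all genes tested did, and 16.9% of the 10595 genes that averaged 5 FPKM or more. The share of members that passed was therefore near that of genes at or above this floor. The floor does not match levels: the median SE was 0.0479 for the members and 0.0709 for the genes averaging 5 FPKM or more. The 4 that rose were the D cyclins Ccnd2 and Ccnd3, the kinase Cdk6 and the survivin gene Birc5, against a background of 7.06% of all genes higher, or 7.95% of those at 5 FPKM or more. The 5 that fell were the ribonucleotide reductase subunit Rrm2, the helicase subunit Mcm4, the cyclin Ccnd1, the kinase Cdk4 and the inhibitor Cdkn2c, against a background of 7.97% lower, or 8.91% at 5 FPKM or more.

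The changes were small. The median log2 fold change of the 53 genes was 0.0163, that of all genes tested was 0.0039, and the median of the absolute changes was 0.1057 against 0.1277 for all genes and 0.1104 for those averaging 5 FPKM or more. Only 4 members, Rrm2, Ccnd2, Ccnd3 and Cdk6, changed by at least 1.25-fold and passed the test, and Rrm2 alone passed with at least a 1.5-fold change, as did 3.51% of all genes tested. In 23 members (43.4%) the 3 values with Dox did not overlap the 3 without. This held for 35.0% of all genes and for 37.4% of those averaging 5 FPKM or more. Of the 44 members that did not pass, 42 had a 95% interval of the change that lay within 1.5-fold in either direction, and the exceptions were E2f2 and E2f3. For 35 of the 44 the interval lay within 1.25-fold.

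**Figure D1:**
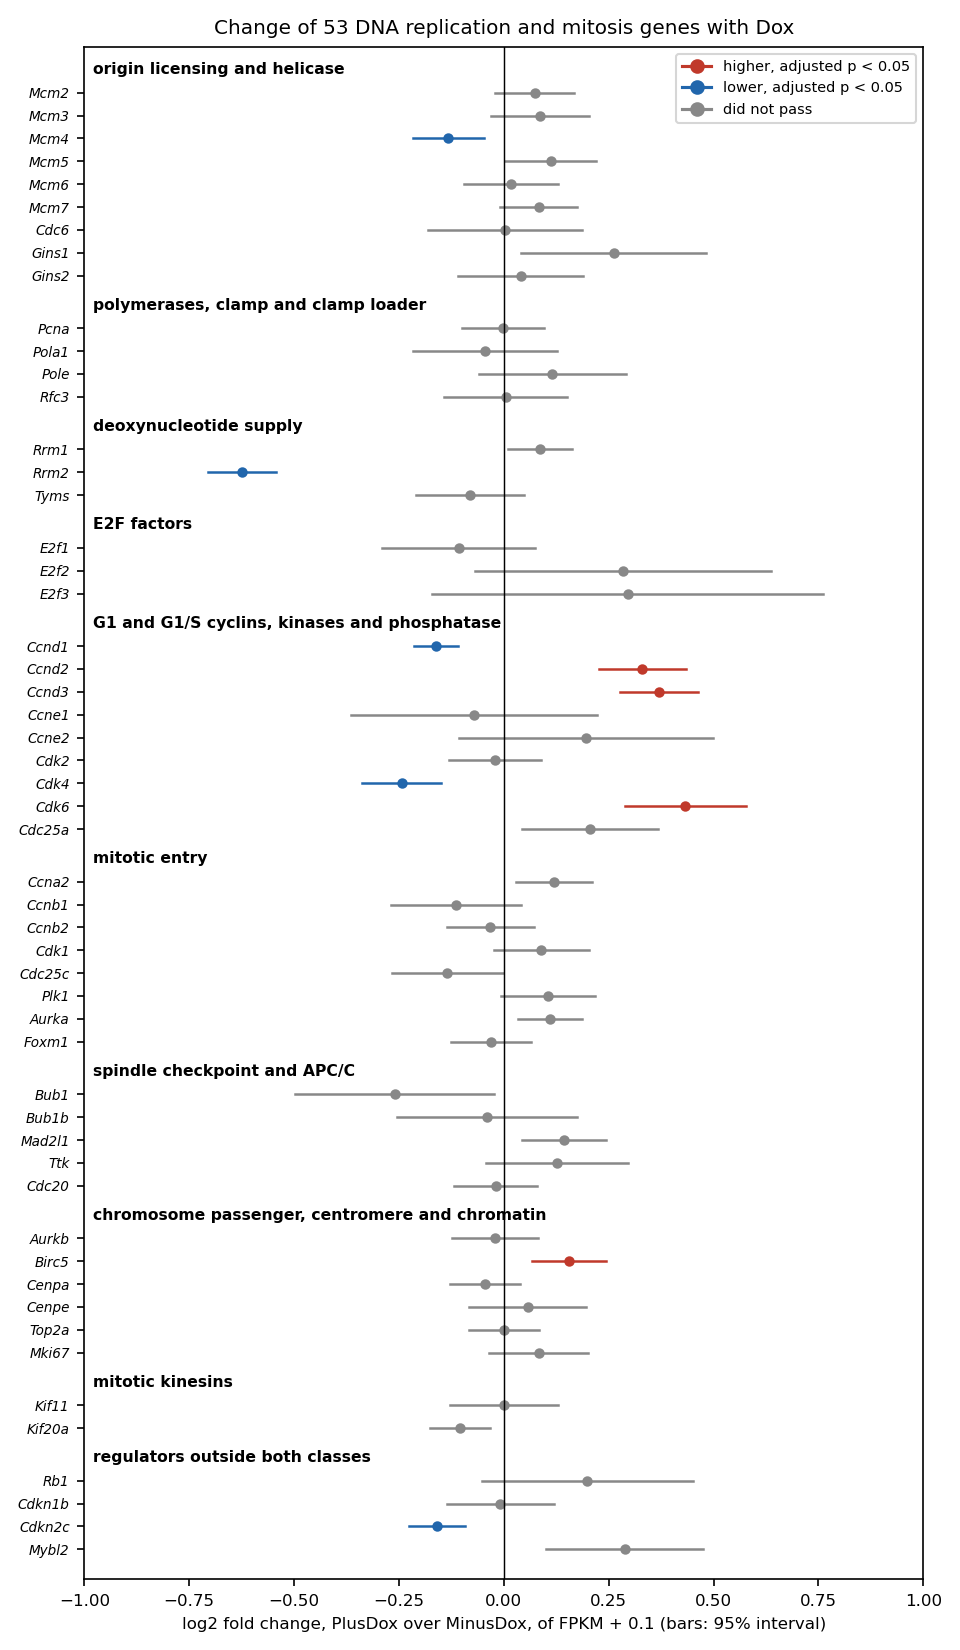
Log2 fold change of FPKM + 0.1 (x axis, PlusDox over MinusDox) of each of the 53 genes, grouped by role, with its 95% interval from limma as a bar; red and blue points passed an adjusted p of 0.05 and grey points did not. Rrm2 stands apart at the low end at -0.62, the G1 cyclins and kinases hold 5 of the 9 genes that passed, and most other intervals include 0.

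Among the 9 genes that license replication origins and build the replicative helicase, only Mcm4 passed, and it was lower. Its protein is a subunit of the MCM ring that unwinds DNA at the fork. Mcm4 was at 107, 104 and 108 FPKM in MinusDox and at 96.5, 98.8 and 95.6 FPKM in PlusDox, with no overlap between the groups. Its log2 fold change was -0.13 (SE 0.036, adjusted p = 0.0492), which is close to the threshold. The call was lost when any of the 6 libraries was left out, with adjusted p-values from 0.0677 without MinusDox replicate 2 to 0.144 without PlusDox replicate 3.

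None of the other MCM subunits passed. Mcm2, Mcm3, Mcm5, Mcm6 and Mcm7 had log2 fold changes between 0.02 (Mcm6) and 0.11 (Mcm5), all positive. Cdc6, which loads the ring onto origins, had a log2 fold change of 0.0038 (23.2 ± 1.06 against 23.3 ± 2.05 FPKM, SD, n = 3 each). Gins1 and Gins2, of the complex that turns the ring into an active helicase, had log2 fold changes of 0.26 and 0.04. Mcm7 shares 72.8% of its longest transcript with Gm5487, and Cdc6 shares 26.1% with Gm9430, so their reads may be split between genes. Gins2 shares 70.7% with Gse1, whose exons overlap 67.3% of the exonic bases of Gins2 on the opposite strand. Whether the counting used strand is not given, so reads of Gins2 may be split as well.

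None of the 4 genes of the polymerases, the sliding clamp and its loader passed. Pcna, the clamp that tethers polymerases to DNA, averaged 165.1 ± 5.35 FPKM without Dox and 164.9 ± 6.26 FPKM with Dox (SD, n = 3 each), although 51.4% of its transcript is shared with a pseudogene. The log2 fold change was -0.04 for Pola1, which starts each new strand with primase, 0.12 for Pole, the leading strand polymerase, and 0.0040 for the clamp loader gene Rfc3. All 4 intervals lay within 1.25-fold.

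Deoxynucleotide supply held the largest change among the members. Ribonucleotide reductase makes deoxynucleotides from a large subunit, Rrm1, and a small one, Rrm2, whose level is the one that rises in S phase. Rrm2 lies on the plus strand at chr12:24708241-24714146 (GRCm38). It was at 200.4, 194.5 and 203.3 FPKM in MinusDox and at 125.7, 130.7 and 131.4 FPKM in PlusDox. All PlusDox libraries were lower than all MinusDox libraries, by a wide gap next to the spread within a group. Its mean decreased by 35.2%, a log2 fold change of -0.62 (SE 0.034, adjusted p = 1.09e-04), and it passed under all 15 alternative settings.

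Rrm1 did not pass. It averaged 177.6 ± 5.12 FPKM in MinusDox and 188.4 ± 1.33 FPKM in PlusDox (SD, n = 3 each; log2 fold change 0.09, adjusted p = 0.133). The ratio of Rrm2 to Rrm1 FPKM was 1.17, 1.09 and 1.12 in the MinusDox libraries and 0.664, 0.699 and 0.695 in the PlusDox libraries. The mRNA of the small subunit was thus above that of the large one in every MinusDox library and below it in every PlusDox library, on a scale that corrects for length. Tyms, thymidylate synthase, had a log2 fold change of -0.08 that did not pass. Rrm2 shares 19.1% of its longest transcript with Gm48455, and Tyms 17.3% with a pseudogene.

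The 3′ UTR sites of Rrm2 and Mcm4 that match the miR-200c seed are shown because these are the genes, among the 9 that passed, that have one. The match is CAGTATT in capitals, the reverse complement of seed bases 2 to 8, with 11 bases on either side. Sites of the members that did not pass are set below them for comparison.

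Rrm2, base 505 of 914 in the 3′ UTR: tttttaatgctCAGTATTatcttgaagtt
Mcm4, base 64 of 780: agtctgaaaggCAGTATTccactatataa
E2f3, base 2455 of 3328: gatgagtactaCAGTATTtttgttacttt
E2f3, base 2882 of 3328: aaatagaatcgCAGTATTtaaagctttag
Rrm1, base 797: tacacataatgCAGTATTtgcacttgtat
Cdc25a, base 645: gcgctgcagacCAGTATTgctgctactca
Ccnb1, base 601: cattttatcaaCAGTATTcctatcagcat
Foxm1, base 1229: cccattccattCAGTATTcaggcctgaaa
Cdkn1b, base 183: ggactataatgCAGTATTtgcaccccaag

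The site of Rrm2 is the only one among these followed by an A (CAGTATTA), the form that faces the base at the 5′ end of the microRNA. How many of all genes tested hold this longer form, and how those genes changed, was not examined. A match was present in the 3′ UTR of 8 of the 53 members (15.1%), against 16.9% of the 10809 genes tested that have an annotated 3′ UTR. Across those genes, the 1823 with a match had a median log2 fold change of -0.0455 and 16.4% of them passed as lower, against a median of 0.0125 and 7.39% lower in the 8986 without one. Of the 8 members with a match, Rrm2 and Mcm4 were lower and the other 6 did not pass, with log2 fold changes from -0.11 (Ccnb1) to 0.30 (E2f3). A match is a run of letters, and binding at these sites was not measured here.

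The E2F factors that drive the S phase genes did not pass. E2f1 was at 33.4, 40.0 and 36.2 FPKM in MinusDox and at 32.2, 35.8 and 33.5 FPKM in PlusDox (log2 fold change -0.11, SE 0.077, adjusted p = 0.413). E2f2 was at 5.98, 4.47 and 5.47 FPKM against 7.32, 5.72 and 6.36 FPKM (0.28, SE 0.150, adjusted p = 0.264). E2f3 was at 19.4, 29.5 and 23.4 FPKM against 35.8, 30.3 and 22.8 FPKM (0.30, SE 0.198, adjusted p = 0.378). The groups overlapped for each of these genes, and the spread of E2f3 within a group was as wide as the difference between the groups. The intervals of E2f2 and E2f3 reach 0.64 and 0.76 on the log2 scale, so these libraries cannot tell a rise of that size from none.

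The G1 cyclins and kinases were the role with the most changes, with 5 of 9 genes past the test (55.6%, against 15.0% of all genes tested), 3 higher and 2 lower. The D cyclins, which answer to growth signals and activate Cdk4 and Cdk6, split by member. Ccnd1 (chr7:144929931-144939925, minus strand) was at 1162, 1166 and 1196 FPKM in MinusDox and at 1049, 1054 and 1048 FPKM in PlusDox. Ccnd2 (chr6:127125162-127152193, minus strand) was at 26.7, 26.7 and 26.5 FPKM against 33.4, 33.3 and 33.9 FPKM. Ccnd3 (chr17:47505051-47599691, plus strand) was at 122.1, 115.1 and 117.2 FPKM against 150.4, 158.2 and 149.5 FPKM. For all 3 D cyclins the groups did not overlap, with Ccnd1 lower and the other members of the family higher in every PlusDox library.

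By limma, Ccnd1 fell by 0.16 on the log2 scale (SE 0.022, adjusted p = 0.00406). Ccnd2 rose by 0.33 (SE 0.044, adjusted p = 0.00376) and Ccnd3 by 0.37 (SE 0.039, adjusted p = 0.00143). The sum of D cyclin FPKM was 1320 ± 17.9 without Dox and 1237 ± 7.81 with Dox (SD, n = 3 each), and Ccnd1 supplied 89.0% ± 0.336 of it without Dox and 84.9% ± 0.269 with Dox. The share from Ccnd3 was 8.95% ± 0.314 without and 12.3% ± 0.306 with Dox, and that from Ccnd2 was 2.02% ± 0.038 and 2.71% ± 0.041. No test was run on these sums and shares. Ccnd1 overlaps exons of Oraov1 (LTO1) on the opposite strand over 23.4% of its exonic bases, and shares 29.5% of its longest transcript with that gene. Oraov1 was at 25.5 to 47.7 FPKM and did not pass, and whether the counting used strand is not given in the sources used here. Ccnd3 shares 18.6% of its transcript with Ccnd3-ps, which was at 10.9 to 14.7 FPKM with a log2 fold change of 0.02.

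The partner kinases split in the same manner. Cdk4 (chr10:127063534-127067920, plus strand) was at 788, 756 and 741 FPKM in MinusDox and at 639, 673 and 618 FPKM in PlusDox. Cdk6 (chr5:3341485-3531008, plus strand) was at 24.2, 21.6 and 21.6 FPKM against 30.4, 30.0 and 30.7 FPKM. Cdk4 was lower and Cdk6 higher in every PlusDox library, with no overlap for either. The log2 fold changes were -0.24 for Cdk4 (SE 0.040, adjusted p = 0.00821) and 0.43 for Cdk6 (SE 0.061, adjusted p = 0.00483). The Cdk4 mRNA remained the more abundant of the pair: the ratio of Cdk4 to Cdk6 FPKM was 32.5, 34.9 and 34.2 in MinusDox and 21.0, 22.4 and 20.1 in PlusDox. The sum of both was 784 ± 25.4 FPKM without Dox and 674 ± 27.8 FPKM with Dox (SD, n = 3 each). Cdk4 overlaps exons of Tspan31 on the opposite strand over 19.7% of its exonic bases, and shares 31.2% of its longest transcript with that gene. Tspan31 was at 133 to 145 FPKM with a log2 fold change of -0.05 (adjusted p = 0.485).

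**Figure D2:**
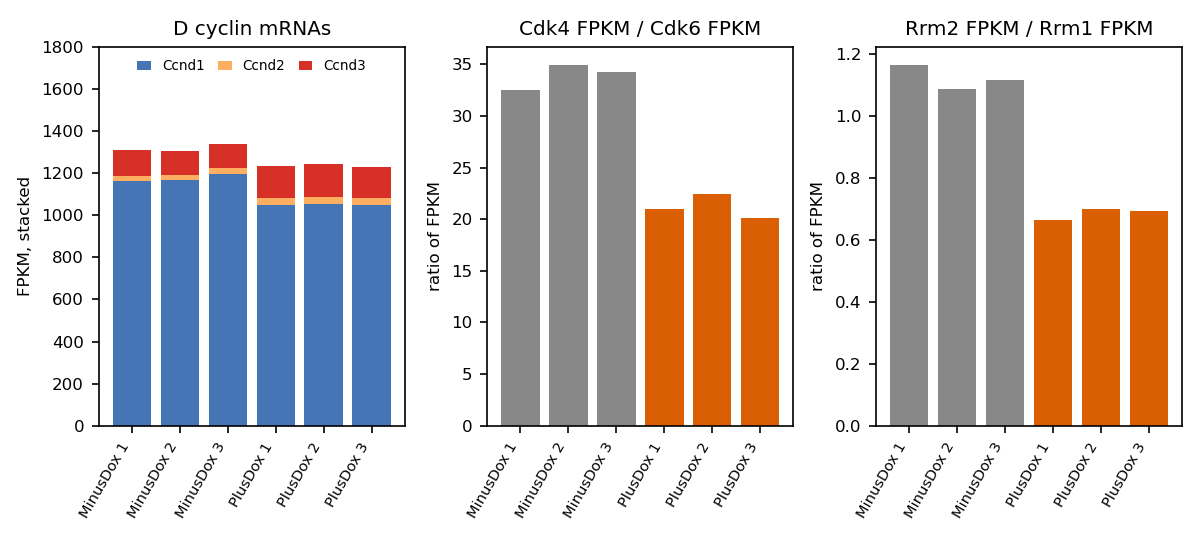
Left, stacked FPKM of Ccnd1, Ccnd2 and Ccnd3 in each of the 6 libraries; middle, the ratio of Cdk4 to Cdk6 FPKM; right, the ratio of Rrm2 to Rrm1 FPKM (bars, 1 per library; grey MinusDox, orange PlusDox). The share of Ccnd1 in the stack is lower with Dox, the Cdk4 to Cdk6 ratio lies between 20.1 and 22.4 with Dox against 32.5 to 34.9 without, and the Rrm2 to Rrm1 ratio is below 1 only in the PlusDox libraries.

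The E cyclins and their kinase did not pass. Ccne1 was at 13.0, 16.9 and 15.8 FPKM in MinusDox and at 16.4, 13.5 and 13.5 FPKM in PlusDox (log2 fold change -0.07, SE 0.124, adjusted p = 0.757). Ccne2 was at 13.7, 16.9 and 16.4 FPKM against 15.1, 19.4 and 19.6 FPKM (0.20, SE 0.128, adjusted p = 0.369). Cdk2 was at 50.01, 47.7 and 47.8 FPKM against 45.9, 48.8 and 48.6 FPKM (-0.02, SE 0.046, adjusted p = 0.806). The groups overlapped for all of them. The interval of Cdk2 lay within 1.25-fold, while those of Ccne1 and Ccne2 did not. Ccne2 shares 20.4% of its transcript with Ints8, whose exons overlap it on the opposite strand. Cdc25a, the phosphatase that activates Cdk2, had separate groups and a log2 fold change of 0.21 that did not pass (adjusted p = 0.0947).

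In the G2/M class, 1 of 21 genes passed, Birc5, and 0 passed as lower. This share was 4.76%, against 15.0% of all genes tested and 16.9% of those averaging 5 FPKM or more. At an unadjusted p under 0.05 there were 7 of 21, near the 29.2% of all genes tested. Birc5 encodes survivin, a subunit of the chromosomal passenger complex that also restrains caspases. It lies on the plus strand at chr11:117849251-117855743 and was at 493.7, 482.8 and 475.7 FPKM in MinusDox and at 521.2, 567.3 and 530.7 FPKM in PlusDox, with no overlap. Its log2 fold change was 0.16 (SE 0.037, adjusted p = 0.0332). The call held under 6 of 15 alternatives, and of the 6 omissions of a library only that of PlusDox replicate 1 kept it, with adjusted p-values in the others from 0.0584 without PlusDox replicate 2 to 0.098 without MinusDox replicate 3.

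None of the 8 genes of mitotic entry passed. Cdk1, the kinase that starts mitosis, was at 320.6, 321.6 and 359.7 FPKM in MinusDox and at 359.9, 352.9 and 352.0 FPKM in PlusDox (log2 fold change 0.09, SE 0.048, adjusted p = 0.269). MinusDox replicate 3 lay inside the PlusDox range, apart from the other MinusDox libraries. Without it Cdk1 had a log2 fold change of 0.14 and an adjusted p of 0.0342, its only pass under 15 alternatives. With any other library left out, Cdk1 had adjusted p-values from 0.371 to 0.512. Of its cyclins, Ccna2 had a log2 change of 0.12 (adjusted p = 0.0830), Ccnb1 of -0.11 and Ccnb2 of -0.03. Plk1 (0.11), Aurka (0.11), the Cdk1-activating phosphatase Cdc25c (-0.13) and the transcription factor Foxm1 (-0.03) did not pass either, and all 8 intervals lay within 1.25-fold. Ccnb1 shares 51.9% of its transcript with Gm12856, Cdc25c 23.7% with Gm3550 and Ccna2 17.3% with Exosc9. Gm3550 and Exosc9 overlap exons of these genes on the opposite strand.

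The spindle checkpoint genes, which hold cells in mitosis until every chromosome is attached, had log2 fold changes from -0.26 (Bub1, adjusted p = 0.140) to 0.14 (Mad2l1, adjusted p = 0.0666), with Bub1b at -0.04 and Ttk at 0.13. Cdc20, the activator of the ubiquitin ligase that ends mitosis, averaged 176.6 ± 6.74 FPKM without Dox and 174.3 ± 6.06 FPKM with Dox (SD, n = 3 each). Among the passenger, centromere and chromatin genes other than Birc5, log2 fold changes ran from -0.05 for Cenpa, the centromeric histone, to 0.08 for Mki67. Mki67, whose product Ki-67 is the standard proliferation marker of pathology, was at 155.1, 171.9 and 162.9 FPKM in MinusDox and at 179.9, 165.4 and 173.4 FPKM in PlusDox (SE 0.050, adjusted p = 0.326), and the groups overlapped. Top2a, which untangles sister chromatids, averaged 216.5 FPKM in both groups (SD 5.58 and 6.46, n = 3 each). The kinesin Kif11, which pushes spindle poles apart, averaged 24.8 FPKM in both. Kif20a, which acts in cytokinesis, had a log2 change of -0.10 (adjusted p = 0.0651). It shares 34.7% of its transcript with Cdc23, whose exons overlap it on the opposite strand.

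**Figure D3:**
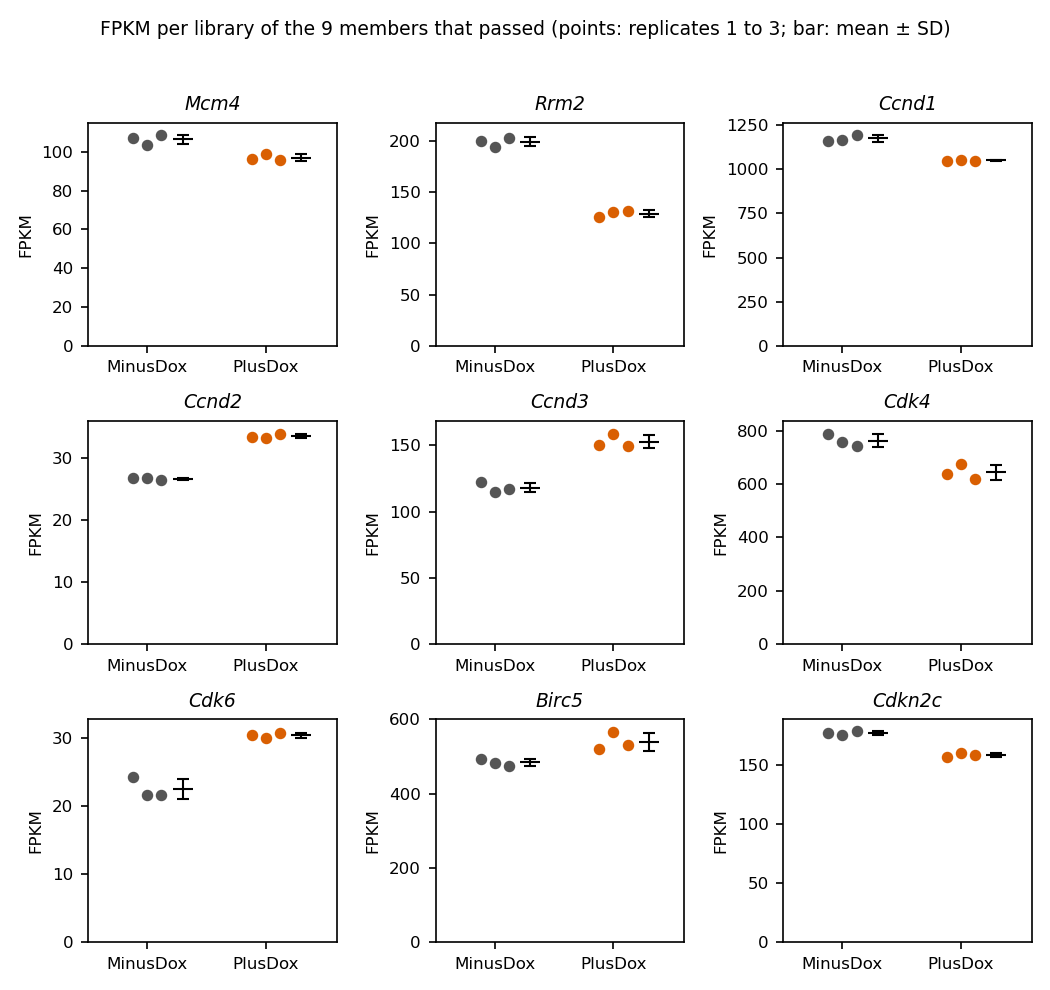
FPKM (y axis, from 0) in each library of the 9 genes that passed, with replicates 1 to 3 of MinusDox in grey and of PlusDox in orange, and the mean ± SD beside them. In every panel the groups do not overlap, and relative to its level the gap is widest for Rrm2 (194.5 to 203.3 FPKM against 125.7 to 131.4 FPKM).

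Of the 4 regulators outside both classes, Cdkn2c passed. It encodes p18, an inhibitor of Cdk4 and Cdk6, and lies on the minus strand at chr4:109660876-109667189. Cdkn2c was at 176.7, 175.4 and 178.6 FPKM in MinusDox and at 156.7, 159.9 and 158.7 FPKM in PlusDox, so each PlusDox library was lower. It decreased by 10.4% (log2 fold change -0.16, SE 0.029, adjusted p = 0.0119). Rb1, the retinoblastoma gene, was at 9.77, 11.8 and 12.7 FPKM against 13.5, 12.5 and 13.2 FPKM (0.20, SE 0.107, adjusted p = 0.271). Cdkn1b, which encodes the Cdk2 inhibitor p27, was at 48.1, 51.3 and 54.5 FPKM against 50.7, 50.5 and 51.6 FPKM (-0.0084, SE 0.054, adjusted p = 0.940). The groups overlapped for both. Mybl2, which encodes B-Myb, stood just outside the threshold with a log2 fold change of 0.29 (adjusted p = 0.0525), and 28.3% of its transcript is shared with Gm3320.

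Set side by side, the G1/S class had 7 of 28 genes past the test (25.0%), 3 higher and 4 lower, and the G2/M class 1 of 21 (4.76%). The share of all genes tested, 15.0%, and that of genes at 5 FPKM or more, 16.9%, lay between them. The difference between these shares was not tested. The medians were close: 0.0568 for G1/S and 0.0003 for G2/M on the log2 scale, a difference of -0.0565 (G2/M minus G1/S). The gap between the median log2 levels of the classes varied by 0.0417 (SD) between libraries of a group. Without MinusDox replicate 3 the difference was -0.0331 and the G2/M median 0.0324, and without PlusDox replicate 2 the G2/M median was -0.0206. Leaving the D cyclins, Cdk2, Cdk4 and Cdk6 out of the G1/S class gave the same median. The share that passed does depend on them. Of the G1/S genes that passed, only Rrm2 and Mcm4 are not among those left out. The excess of this class over the share of all genes thus rests on the D cyclins, Cdk4 and Cdk6. The range was wider in the G1/S class, from -0.62 to 0.43, than in the G2/M class, from -0.26 to 0.16. The geometric mean over the 28 G1/S genes was 60.5, 61.5 and 62.4 FPKM in the MinusDox libraries and 63.6, 65.2 and 62.7 FPKM in the PlusDox libraries. Over the 21 G2/M genes it was 100.5, 101.5 and 104.2 FPKM against 102.0, 104.1 and 102.1 FPKM. The G2/M geometric mean overlapped between the groups, and that of G1/S did not, by 62.4 against 62.7 FPKM. The median log2 level of the G1/S genes did overlap, at 5.92, 5.86 and 5.91 in MinusDox and 5.82, 5.96 and 5.88 in PlusDox, so no shift of the class is read from these levels.

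**Figure D4:**
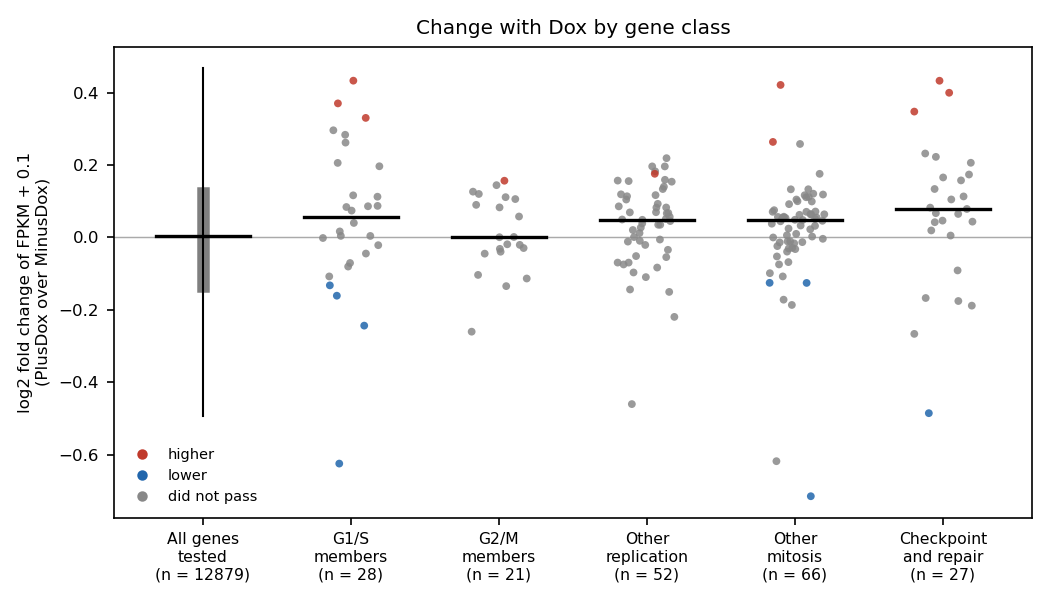
Log2 fold change of FPKM + 0.1 (y axis, PlusDox over MinusDox) of the members by class and of 3 further gene lists, with 1 point per gene, red or blue where it passed, and a black line at the median; for all 12879 genes tested the thick bar runs between the quartiles and the thin line from the 5th to the 95th percentile. The medians lie between 0.0003 and 0.0783, and the G2/M members lie closer to 0 than the G1/S members.

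The promoters set the classes apart by sequence. Words of E2F sites (TTTCCCGC, TTTGGCGC, TTTCGCGC and TTTGCCGC), the cell cycle homology region word CHR (TTTGAA) and the CCAAT box (CCAAT) were searched on both strands from 250 bases before to 50 bases after the annotated start, in the RefSeq promoters of GRCm38.p6, with which 40 of the 53 members were matched. An E2F word was found in 11 of 21 G1/S promoters (52.4%) and in 1 of 16 G2/M promoters (6.25%), that of Cdk1, against 4.46% of 8558 genes tested and 2.33% of all 27025 promoters. The CHR word was found in 2 of 21 G1/S promoters (9.52%) and 11 of 16 G2/M promoters (68.8%), against 11.3% of genes tested and 18.2% of all promoters. A CCAAT box was found in 66.7% of the G1/S and 87.5% of the G2/M promoters, against 39.3% of genes tested and 38.0% of all. E2F words can overlap one another and were then each counted. A single RefSeq window was used per gene, and its start can differ from the gene limits given here, which are those of GENCODE. The windows of Mcm7, Cdc6, E2f1, Cdk6 and Cdkn2c lie wholly inside those limits. A word absent from these windows may therefore be present at the outermost start. These shares are descriptions, and words found in a promoter are not shown to be bound.

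**Figure D5:**
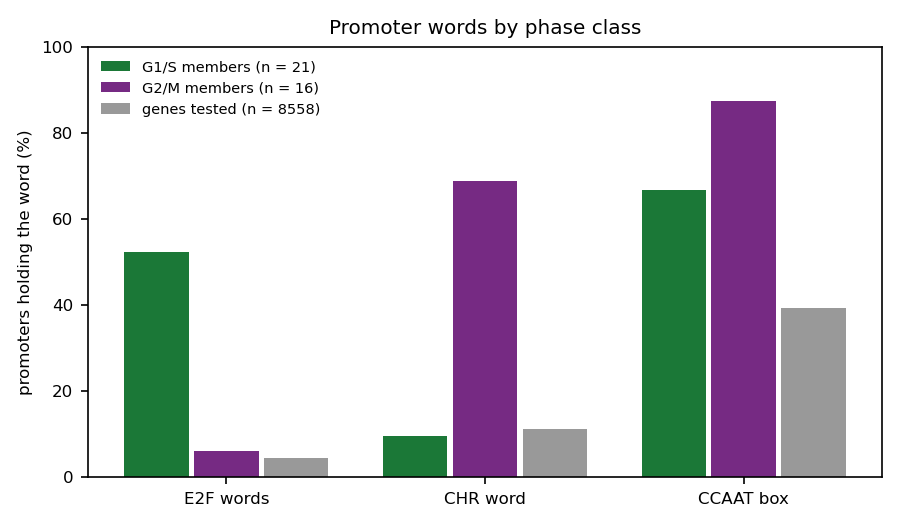
Share of promoters (y axis, percent) with at least 1 E2F word, CHR word or CCAAT box on either strand, for the G1/S members (green), the G2/M members (purple) and the genes tested (grey). The E2F words are most frequent in the G1/S members (52.4%) and the CHR word in the G2/M members (68.8%).

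A promoter of each class is shown with these words in capitals, followed by those of Rrm2 and Cdk4, which fell. Mcm6 and Cdc20 have the words typical of their class, and neither gene passed.

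Mcm6 (minus strand, chr1:128359656-128359955): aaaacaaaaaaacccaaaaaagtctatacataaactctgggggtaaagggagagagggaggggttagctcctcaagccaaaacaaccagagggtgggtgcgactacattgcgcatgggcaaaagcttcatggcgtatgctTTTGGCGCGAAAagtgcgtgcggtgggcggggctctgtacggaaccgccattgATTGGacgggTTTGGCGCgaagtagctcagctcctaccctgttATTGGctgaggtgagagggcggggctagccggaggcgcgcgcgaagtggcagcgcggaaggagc
Cdc20 (minus strand, chr4:118437294-118437593): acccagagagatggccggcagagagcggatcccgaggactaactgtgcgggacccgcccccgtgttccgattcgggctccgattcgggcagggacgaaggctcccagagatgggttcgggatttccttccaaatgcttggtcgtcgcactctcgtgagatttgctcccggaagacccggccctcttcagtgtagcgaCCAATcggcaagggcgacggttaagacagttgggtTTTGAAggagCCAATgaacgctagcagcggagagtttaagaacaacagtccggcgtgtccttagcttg
Rrm2 (plus strand, chr12:24708004-24708303): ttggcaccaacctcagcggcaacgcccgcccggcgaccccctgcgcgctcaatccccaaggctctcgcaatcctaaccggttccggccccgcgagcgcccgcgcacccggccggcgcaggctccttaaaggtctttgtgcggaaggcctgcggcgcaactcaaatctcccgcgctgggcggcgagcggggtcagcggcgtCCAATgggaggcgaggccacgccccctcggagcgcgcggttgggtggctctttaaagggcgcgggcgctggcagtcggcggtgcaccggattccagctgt
Cdk4 (plus strand, chr10:127063285-127063584): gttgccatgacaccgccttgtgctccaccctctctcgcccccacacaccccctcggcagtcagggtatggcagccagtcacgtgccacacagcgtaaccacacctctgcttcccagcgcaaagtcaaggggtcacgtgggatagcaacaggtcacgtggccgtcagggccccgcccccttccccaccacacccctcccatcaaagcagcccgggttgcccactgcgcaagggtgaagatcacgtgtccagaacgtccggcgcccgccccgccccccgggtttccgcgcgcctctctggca

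The Mcm6 window holds 3 E2F words, of which a pair overlaps within the run TTTGGCGCGAAA, and 2 CCAAT boxes on the reverse strand. The Cdc20 window holds 1 CHR word between 2 CCAAT boxes. Rrm2 has 1 CCAAT box and no E2F or CHR word, and Cdk4 has none of the words. Of the 9 genes that passed, Rrm2, Ccnd3, Cdk4, Cdk6, Birc5 and Cdkn2c were matched with a promoter. In the letters searched, 0 of these 6 held an E2F or CHR word. Among the genes tested, 4.46% held an E2F word and 11.3% the CHR word, but these 6 genes are not a draw from all of them. Rrm2, Ccnd3, Cdk4 and Cdk6 are of the G1/S class, where 52.4% held an E2F word. Birc5 is of the G2/M class, where 68.8% held the CHR word. Whether 0 of 6 departs from these shares was not tested. The windows of Cdk6 and Cdkn2c also lie inside the gene. The count says nothing of the factors themselves.

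Few genes passed in further lists of the same pathways. Of 52 other replication genes tested, 1 was higher and 0 were lower (1.92%, against 15.0% of all genes), with 7 at an unadjusted p under 0.05 (against 29.2% of all genes) and a median log2 fold change of 0.0488. The gene that passed was Tk1, thymidine kinase, at 213.4, 214.8 and 214.3 FPKM in MinusDox and 238.1, 253.1 and 234.9 FPKM in PlusDox (0.18, adjusted p = 0.0186), with no overlap. Its call was lost without MinusDox replicate 2 or replicate 3. It was also lost by limma without the trend and in an unmoderated linear model, and each of these settings left 0 genes of the list.

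Of 66 other mitosis genes, 2 were higher and 3 lower (7.58%, against 15.0% of all genes tested), with a median of 0.0468. Ect2, the exchange factor that switches on RhoA for the cleavage furrow, was at 65.8, 64.9 and 66.6 FPKM against 95.04, 83.6 and 86.0 FPKM (0.42, adjusted p = 0.00325). Kif23, a kinesin of the centralspindlin complex that recruits Ect2 to the midzone, was at 43.6, 42.8 and 45.0 FPKM against 53.5, 52.1 and 52.1 FPKM (0.26, adjusted p = 0.00767). For both, every PlusDox library was higher than every MinusDox library. Lower were Depdc1b (-0.72, adjusted p = 0.00823), Prc1, which bundles midzone microtubules (-0.13, adjusted p = 0.0241), and Anln, the anillin gene of the contractile ring (-0.13, adjusted p = 0.0322). The count of 3 lower genes was 1 when any library other than MinusDox replicate 1 was left out.

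Of 28 tested genes of the RB family, the other E2F and DREAM factors and the CDK inhibitors, 1 was higher and 1 lower. This share was 7.14%, against 15.0% of all genes tested, and the median was -0.0127. E2f4, which works mostly as a repressor with the pocket proteins, was at 75.5, 70.8 and 72.6 FPKM in MinusDox and 84.4, 87.9 and 86.7 FPKM in PlusDox (0.24, adjusted p = 0.00900). Cdkn2b, which encodes the Cdk4 and Cdk6 inhibitor p15, was at 71.1, 75.5 and 71.9 FPKM against 55.7, 61.4 and 57.8 FPKM (-0.32, adjusted p = 0.00714). The groups did not overlap for either gene. Thus both INK4 inhibitor genes that passed, Cdkn2b and Cdkn2c, were lower with Dox, while Cdkn2a, at 367 to 414 FPKM, did not pass (-0.10 on the log2 scale, adjusted p = 0.0947). Without MinusDox replicate 3 there were 2 higher genes in this list, and without PlusDox replicate 1 there were 2 lower ones.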

How the data were processed

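Single-end reads of 6 stranded TruSeq mRNA libraries (3 MinusDox, 3 PlusDox) were mapped by the authors with gSNAP, and FPKM per gene were estimated by the authors with Cufflinks; versions and whether counting used strand are not given in the sources used here. The submitters' processing notes name GRCm38.p6; the paper also names an FVB_NJ assembly, not used here. The deposited table also holds the authors' group means, a fold ratio written as a signed score, p-values and q-values, none of which were used. Per-sample columns left unused numbered 0.

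The table has 43611 rows; of repeated identifiers only the row of highest mean stayed (63 rows dropped), and the placeholder 999999999 (6 values in 4 genes) was treated as missing. The test took log2(FPKM + 0.1) of the 12879 genes averaging 1 FPKM or more. It used limma 3.58.1 (lmFit, then eBayes with a variance trend; R 4.3.3), group being the only term, with two-sided p-values adjusted by Benjamini-Hochberg over all genes tested and a threshold of 0.05. This scale understates the change of low genes. An exact permutation test of 3 against 3 libraries cannot go below p = 0.1 and was not used. Depth is unknown in FPKM, so no counting interval is given. The groups are called biological triplicates plated side by side, which are not stated to come from separate passages, so p-values measure the spread between these cultures.

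Members and lists were chosen with earlier results of these data known, so lists are described by counts and medians without a test. Values per library were given for members that passed and for E2F, cyclin D and E, Cdk1, Cdk2, Cdk4, Cdk6, Rb1, Cdkn1b, Cdkn2c and Mki67 genes whatever their p; from other lists at most 5 passing genes per direction were named. Other members named for their values were chosen after these were seen. Longest transcripts of the members (GENCODE, GRCm38) were compared with BLAST 2.17.0 (95% identity, at least 50 bases), and sharing of 10% or more marked. Python 3.11.15 and matplotlib 3.10.9 were used for sequences and plots. Some genes of the marker and repair lists are not reported here. The model was tested on simulated data. Replicate numbers are shared by the groups; the fit with the number as a block, other pseudocounts, filters, normalizations, variance models and the omission of each library were alternatives.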

Additional observations from a re-analysis of the deposited data

How the results depend on the processing

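Rrm2, Ccnd2, Ccnd3 and Cdk6 passed under all 15 alternatives; Ccnd1 and Cdkn2c were lost only by limma without the trend (adjusted p = 0.052 and 0.0517), and Cdk4 only in an unmoderated linear model on log2(FPKM + 1) (0.0528). Mcm4 passed under 5 and Birc5 under 6 of 15. No named member that passed changed sign. The count of members lower was 2 by limma without the trend, as was that of G1/S members lower, which was also 2 in the unmoderated model. The count of G2/M members higher was 0 without a filter on low values, by limma without the trend and with the replicate block, and 0 to 1 when libraries were left out; that of G2/M members lower was 1 with quantile normalization and in the unmoderated model (Kif20a). Genes called in all numbered 1048 to 1359 when a library was left out (1248, 1235 and 1244 without MinusDox replicate 2, PlusDox replicate 1 and PlusDox replicate 2), and 1290 to 1992 under the other settings. The cause was not tested.

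Any pairing of the samples by replicate number was weak. Same-numbered libraries had a mean correlation of deviations of 0.0190, at most 0.0359, and others -0.00951. Of the 6 libraries, 4 were closest to their own number, so a slight pairing is not excluded. With the replicate block, 1337 genes and 8 members passed, of which 7 also passed without it; Mcm4 (adjusted p = 0.121) and Birc5 (0.0669) were lost and Mybl2 was gained. FPKM carry no depth, and precision rests on 3 libraries per group. Intervals were widest for E2f2 and E2f3.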

Other observations

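Damage and checkpoint genes, which sit beside the replication genes in function, were described in the same way. Of 19 tested targets and regulators of p53, 2 were higher and 2 lower (21.1%, against 15.0% of all genes tested), with a median log2 fold change of 0.1075. At an unadjusted p under 0.05 there were 12 of 19, against 29.2% of all genes tested. The groups did not overlap for 14 of 19 (73.7%), against 35.0% of all genes. No test of the list was run. Plk2, a Polo-like kinase, was at 44.5, 40.8 and 45.5 FPKM in MinusDox and at 63.5, 69.2 and 66.7 FPKM in PlusDox (0.61, limma adjusted p = 8.46e-04). Btg2, an antiproliferative gene, was at 3.79, 3.47 and 4.10 FPKM against 7.21, 6.09 and 5.66 FPKM (0.72, adjusted p = 0.0144). Sesn1, a sestrin, was at 12.0, 10.99 and 10.47 FPKM against 6.91, 7.45 and 6.90 FPKM (-0.64, adjusted p = 0.00402), and Phlda3 was lower as well (-0.25, adjusted p = 0.0241). The groups did not overlap for any of these. Cdkn1a, which encodes the CDK inhibitor p21, did not pass, at 11.4, 12.4 and 13.1 FPKM against 11.1, 9.21 and 9.31 FPKM (-0.32, adjusted p = 0.0828), and Mdm2 had a log2 fold change of 0.0048. The count of 2 lower was 1 without MinusDox replicate 3 or PlusDox replicate 3. It was also 1 by limma without the trend, in the unmoderated model and with the replicate block.

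Of 27 replication checkpoint and repair genes, 3 were higher and 1 lower (14.8%, against 15.0% of all genes tested), with a median of 0.0783. Mre11a, a nuclease subunit at DNA breaks, was at 28.4, 32.1 and 33.1 FPKM in MinusDox and at 40.7, 40.1 and 42.5 FPKM in PlusDox (0.40, adjusted p = 0.00954). The Fanconi anemia gene Fanca was also higher (0.43, adjusted p = 0.0293). Mdc1, the scaffold of the damage response at chromatin, was at 39.6, 38.6 and 40.1 FPKM against 29.6, 28.2 and 26.6 FPKM (-0.49, adjusted p = 0.00182). The groups did not overlap for the genes named here. The count of 3 higher was 1 without MinusDox replicate 2, MinusDox replicate 3 or PlusDox replicate 3, and without a filter on low values.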
